A study of Mus musculus with 76 samples.

Results

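Aif1, Csf1r, C1qa, C1qb, C1qc, Adgre1, Clec4f, Vsig4, Tmem119 and P2ry12 mark macrophages of different tissues, and their RNA was followed here through brain, liver, ovary and testis of wild-derived house mice. They are 10 of the 25567 genes counted in each of 76 RNA-seq libraries, chosen by symbol: Aif1 because it lies in the region of chromosome 17 that the t haplotype spans, and the other 9 as tissue-macrophage markers elsewhere in the genome. The mice (Mus musculus domesticus) descended from animals caught at Illnau in Switzerland and were reared in the laboratory to sexual maturity; no age beyond that is used here. Each pair was 2 siblings of the same sex from 1 litter, a +/t carrier and a +/+ animal, 15 pairs from 10 litters in all. The groups, +/t and +/+, were 5 and 5 libraries of brain and 7 and 7 of liver from males, 7 and 7 of brain and 6 and 6 of liver from females, 7 and 7 of ovaries, and 6 and 6 of testis. No animal was treated and no gene was targeted: the t haplotype is a natural variant of a large block of chromosome 17, so +/t and +/+ siblings differ at many linked genes at once. All members except Aif1 lie outside that block, which was taken as the first 40 Mb of chromosome 17; Adgre1 is on chromosome 17 at 57358691-57483527, beyond it.

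Macrophages seed almost every organ, and resident populations take on a tissue's own profile: microglia in the brain, Kupffer cells along the sinusoids of the liver, and interstitial macrophages in the gonads. They depend on the CSF1 receptor, the product of Csf1r, which binds the ligands CSF1 and IL-34. C1qa, C1qb and C1qc encode the chains of C1q, the recognition molecule that starts the classical complement pathway, and in the brain C1q is known for tagging synapses. Aif1 encodes IBA1, an actin-binding protein that is the usual stain for microglia, and Adgre1 encodes F4/80, an adhesion receptor used to sort mouse macrophages. Clec4f, a C-type lectin, is in mice a marker of Kupffer cells, and Vsig4 is a complement receptor of the same cells. Tmem119 and P2ry12, a membrane protein and a receptor for ADP, are used to tell microglia from other macrophages.

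Promoter sequence is shown for 5 members because these genes share a cell lineage but differ in tissue, and because the lineage factor PU.1 binds sequences with the core printed here in capitals. Each run is the 250 bases before the annotated start in RefSeq's GRCm38.p6 table, 5′ to 3′ on the gene's strand, which is the minus strand for all of them. Capitals mark AGGAAGT or its reverse complement ACTTCCT.
Aif1, chr17:35176053-35176302: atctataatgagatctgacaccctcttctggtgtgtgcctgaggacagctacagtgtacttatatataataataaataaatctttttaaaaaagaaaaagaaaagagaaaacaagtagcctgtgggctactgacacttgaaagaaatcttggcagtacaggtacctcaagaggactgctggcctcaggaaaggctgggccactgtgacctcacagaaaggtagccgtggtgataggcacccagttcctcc
C1qb, chr4:136886201-136886450: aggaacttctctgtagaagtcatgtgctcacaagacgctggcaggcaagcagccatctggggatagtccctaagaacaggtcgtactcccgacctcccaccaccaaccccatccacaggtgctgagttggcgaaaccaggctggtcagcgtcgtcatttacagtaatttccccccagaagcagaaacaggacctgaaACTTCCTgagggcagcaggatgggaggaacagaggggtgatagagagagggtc
C1qc, chr4:136892915-136893164: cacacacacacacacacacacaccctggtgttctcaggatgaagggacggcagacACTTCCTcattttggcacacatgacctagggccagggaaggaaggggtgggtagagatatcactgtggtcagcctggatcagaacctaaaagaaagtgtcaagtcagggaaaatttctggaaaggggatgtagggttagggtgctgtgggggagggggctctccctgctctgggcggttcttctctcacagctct
P2ry12, chr3:59262986-59263235: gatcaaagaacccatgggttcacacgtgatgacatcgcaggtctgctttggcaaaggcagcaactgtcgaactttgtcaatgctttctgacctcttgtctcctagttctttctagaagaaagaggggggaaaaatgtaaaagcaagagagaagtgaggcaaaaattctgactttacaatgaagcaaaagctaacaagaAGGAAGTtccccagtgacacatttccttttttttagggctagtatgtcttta
Clec4f, chr6:83656117-83656366: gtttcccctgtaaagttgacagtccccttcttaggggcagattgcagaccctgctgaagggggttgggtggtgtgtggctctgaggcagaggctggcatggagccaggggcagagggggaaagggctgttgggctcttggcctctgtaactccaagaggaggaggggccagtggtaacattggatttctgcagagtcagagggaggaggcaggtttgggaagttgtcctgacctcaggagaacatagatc
The motif stood in the promoters of C1qb (53 to 47 bases before the start, on the opposite strand), C1qc (195 to 189 bases before, opposite strand) and P2ry12 (52 to 46 bases before, gene strand). It was in 3 of the 6 members with a promoter in the table, the sixth being Vsig4, and in 2525 of all 32851 promoters of the same length (7.69%) on either strand. The cAMP response element TGACGTCA was in 0 of these 6 and in 508 of all promoters (1.55%). Such a match describes the letters only. In base composition the promoters ran from 41.6% G and C in P2ry12 and 43.6% in Aif1 to 57.2% in Clec4f.

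Library totals ranged from 8266183 to 45203167 counts, with 16964364 to 45203167 in brain and 8266183 to 21224237 in liver. Tissue labels matched defining genes: a list of 5 hepatocyte genes summed to 63580 to 125427 CPM (a gene's counts scaled to the same library total in every library) in the liver libraries and at most 1.06 CPM in brain, and 5 germ cell genes summed to 11013 to 13225 CPM in testis and at most 15.6 CPM elsewhere. RNA of brain was extracted with phenol-chloroform and RNA of the other tissues with a Trizol and column kit, so tissue and extraction cannot be told apart. For pair 3 of the male livers, 2 animal numbers in the titles carry the opposite genotype in other tissues. The genotype labels were used as given. With the labels of this pair exchanged, 0 members were called in male liver, as with the labels given. Of all genes 0 were called there, in place of 19. In 7 libraries 59.3 to 68.1% of counts from 20 to below 500 were even, against 48.7 to 51.2% in the other libraries. Csf1r shares 873 exonic bases with Hmgxb3 on the opposite strand and P2ry12 shares 9 with Med12l; whether the counting used strand is not given in the sources used here, so reads in these stretches cannot be assigned.

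Clec4f and Vsig4 were high in liver alone. Clec4f averaged 65.9 ± 7.15 CPM in male liver (SD, n = 14) and 86.5 ± 18.2 CPM in female liver (SD, n = 12), and outside liver it had 1 count in 1 of 24 brain libraries, 3 counts in 1 of 14 ovary libraries and a mean of 0.0819 CPM in testis. Vsig4 averaged 20.2 CPM in male liver and 25.7 CPM in female liver, had no count in any of 24 brain libraries, and averaged 0.161 CPM in ovary and 0.159 CPM in testis. In the 10 female animals with both tissues, brain held 0 Clec4f counts in sum and liver 10631, which, per library total, is at least 6558-fold higher in liver with a floor of 3 counts over the group. For Vsig4 the same floor put liver at least 1981-fold above brain in females and at least 1621-fold in males. These bounds cover counting error only. Within liver the 2 genes kept a narrow proportion, with 0.255 to 0.376 Vsig4 counts per Clec4f count (median 0.291) over 26 libraries.

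**Figure D1:**
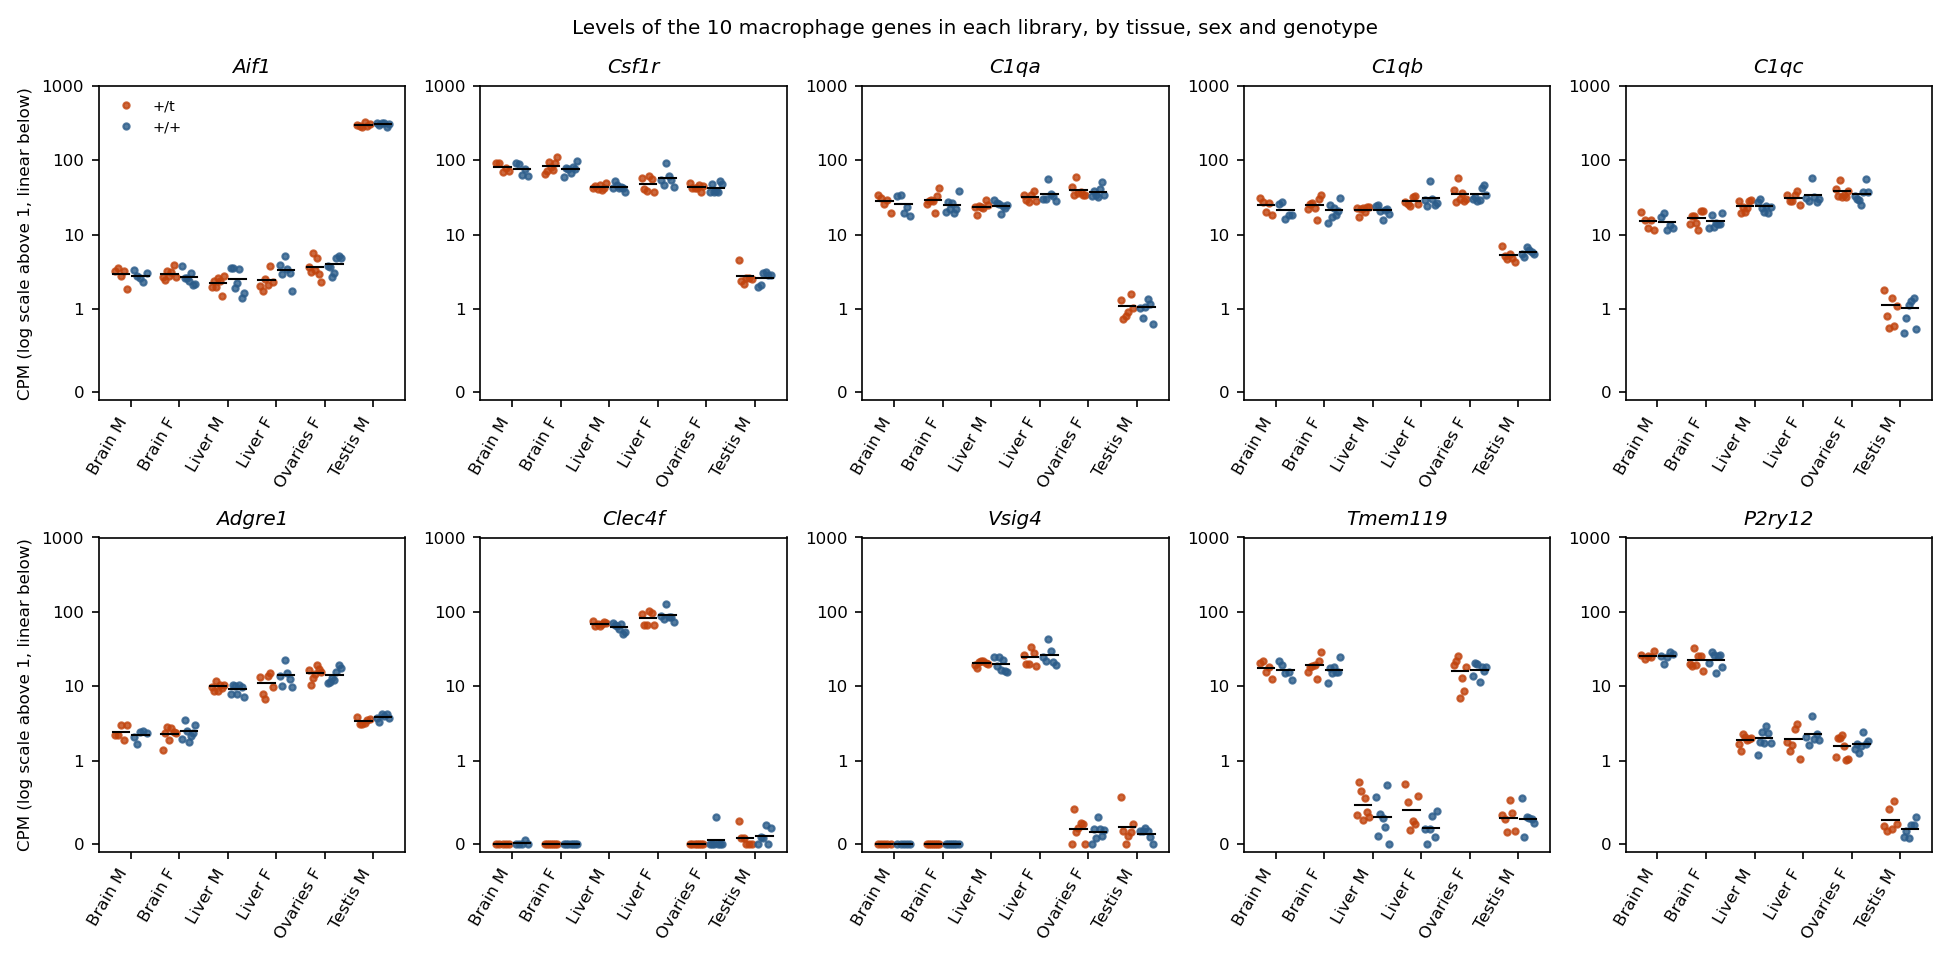
Levels of the 10 genes in CPM, on an axis that is logarithmic above 1 CPM and linear below, by tissue, sex and genotype, with a point for each library and a bar at the mean of each group; +/t stands left of +/+. Aif1 lies at 280 to 327 CPM in testis and below 6 CPM in the other tissues, Clec4f and Vsig4 are high in liver alone, and P2ry12 is high in brain.

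P2ry12 and Tmem119, the microglial pair, did not share a distribution. P2ry12 averaged 25.6 CPM in male brain and 22.8 CPM in female brain, 1.96 to 2.13 CPM in liver, 1.64 CPM in ovary and 0.231 CPM in testis. Tmem119 averaged 17.3 and 18.1 CPM in male and female brain and 16.6 CPM in ovary, where libraries ranged from 7.07 to 25.7 CPM and overlapped brain, but 0.303 to 0.392 CPM in liver and 0.304 CPM in testis. The median count of Tmem119 per count of P2ry12 was therefore 0.673 in brain (0.420 to 1.82 over 24 libraries) and 9.75 in ovary (3.21 to 17.4 over 14 libraries), without overlap. Cx3cr1, the fractalkine receptor and another microglial gene, had 35.7 ± 4.61 CPM in brain and 14.2 ± 3.83 CPM in ovary (SD, n = 24 and 14). Siglech, a lectin of microglia, had 6.65 ± 1.17 CPM in brain and 1.29 ± 0.363 CPM in ovary. Both genes were chosen after their values were seen. A list of 15 microglial genes went the other way in sum, with overlap. Its summed level had a median of 1475.5 CPM in brain (1110.3 to 1861.2) and 1976.5 CPM in ovary (1425.4 to 2454.5). Lower levels in ovary thus did not hold for microglial genes as a whole.

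Csf1r and the C1q genes were present in all of brain, liver and ovary and scarce in testis. Csf1r averaged 79.0 and 81.2 CPM in male and female brain, 44.1 and 54.0 CPM in male and female liver, 43.5 CPM in ovary and 2.75 CPM in testis. C1qa averaged 24.3 and 34.0 CPM in male and female liver, 27.1 and 27.5 CPM in male and female brain, 39.1 CPM in ovary and 1.09 CPM in testis. By library totals the ranges of neighbours in the order of means overlapped for both genes, except that testis stood apart. With factors of the trimmed mean of M values (TMM) over all libraries, ovary stood apart too for Csf1r. Csf1r then had 21.5 to 29.5 CPM in ovary, against at least 49.3 CPM in brain and 55.1 CPM in liver. C1qb and C1qc had the same lowest tissue, at 5.59 and 1.09 CPM in testis. Adgre1 ran otherwise. By library totals it was highest in ovary at 14.8 CPM, with 9.57 and 12.6 CPM in male and female liver and 3.65 CPM in testis. Male and female brain had 2.35 and 2.40 CPM. With the TMM factors Adgre1 was highest in female liver at 19.0 CPM, with 14.3 CPM in male liver and 8.58 CPM in ovary. Adgre1 counts per Csf1r count had a median of 0.0302 in brain, 0.227 in liver, 0.342 in ovary and 1.35 in testis, with no overlap between brain and the other tissues. In bulk tissue, fewer cells of a type and less RNA per cell cannot be told apart.

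Levels set between genes were compared per kilobase of exon. In brain the order was C1qa at 26.3, C1qb at 21.5, Csf1r at 13.9, P2ry12 at 9.41, C1qc at 8.10, Tmem119 at 7.68, Aif1 at 1.88 and Adgre1 at 0.735 CPM per kilobase. Liver was led by Clec4f at 30.5 CPM per kilobase, above C1qa at 27.7, C1qb at 23.4, Vsig4 at 15.3 and C1qc at 14.8. Ovary was led by the C1q chains, C1qa at 37.6, C1qb at 32.6 and C1qc at 19.2 CPM per kilobase. In testis Aif1 at 198 CPM per kilobase ranked 212 of 25472 genes, and the next member was C1qb at 5.13 CPM per kilobase. These lengths are of all exons of a gene together. With the longest transcript instead, testis Aif1 came to 347 CPM per kilobase. The printed orders also changed for C1qc, which has 1931 exonic bases and a longest transcript of 1203 bases. It then stood above P2ry12 in brain and above C1qb and Vsig4 in liver.

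The C1q chains are encoded side by side on chromosome 4, C1qb at 136880129-136886187, C1qc at 136889804-136893065 and C1qa at 136895917-136898803 (GRCm38), and their counts tracked each other closely outside testis. C1qb counts per C1qa count had a median of 0.847 in brain, 0.892 in liver and 0.909 in ovary, with every library of these tissues between 0.713 and 1.02. Testis was apart, at a median of 5.36 and a range of 3.0 to 6.69 over 12 libraries. There C1qb had 563 counts in sum in +/t and 493 in +/+ animals, against 115 and 89 for C1qa, so each testis ratio rests on few C1qa counts. C1qc counts per C1qa count had a median of 0.584 in brain (0.475 to 0.718), against 1.003 in liver (0.830 to 1.21) and 0.926 in ovary (0.780 to 1.12), where brain did not overlap either tissue. Testis, at a median of 1.02 and a range of 0.500 to 1.45, overlapped all of them. Across libraries of a tissue, Pearson's r of log2 values between C1q chains was 0.897 to 0.940 in brain (n = 24), 0.921 to 0.945 in liver (n = 26) and 0.851 to 0.952 in ovary (n = 14), but 0.295 to 0.655 in testis (n = 12). Libraries of both genotypes, and of both sexes in brain and liver, share these points. In brain, r with C1qa was also 0.94 for Slc9a3r1 and 0.93 for Mapk8ip1 and for Tomm6. An r of this size there was thus not particular to the C1q chains. Pairs with Aif1 had a median r of 0.130 in brain, 0.550 in liver, 0.579 in ovary and 0.0743 in testis. In brain, P2ry12 had r of -0.41 with C1qa, -0.29 with C1qb, -0.24 with C1qc, -0.40 with Tmem119 and -0.069 with Csf1r. It had 0.50 with Adgre1 and 0.13 with Aif1.

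**Figure D2:**
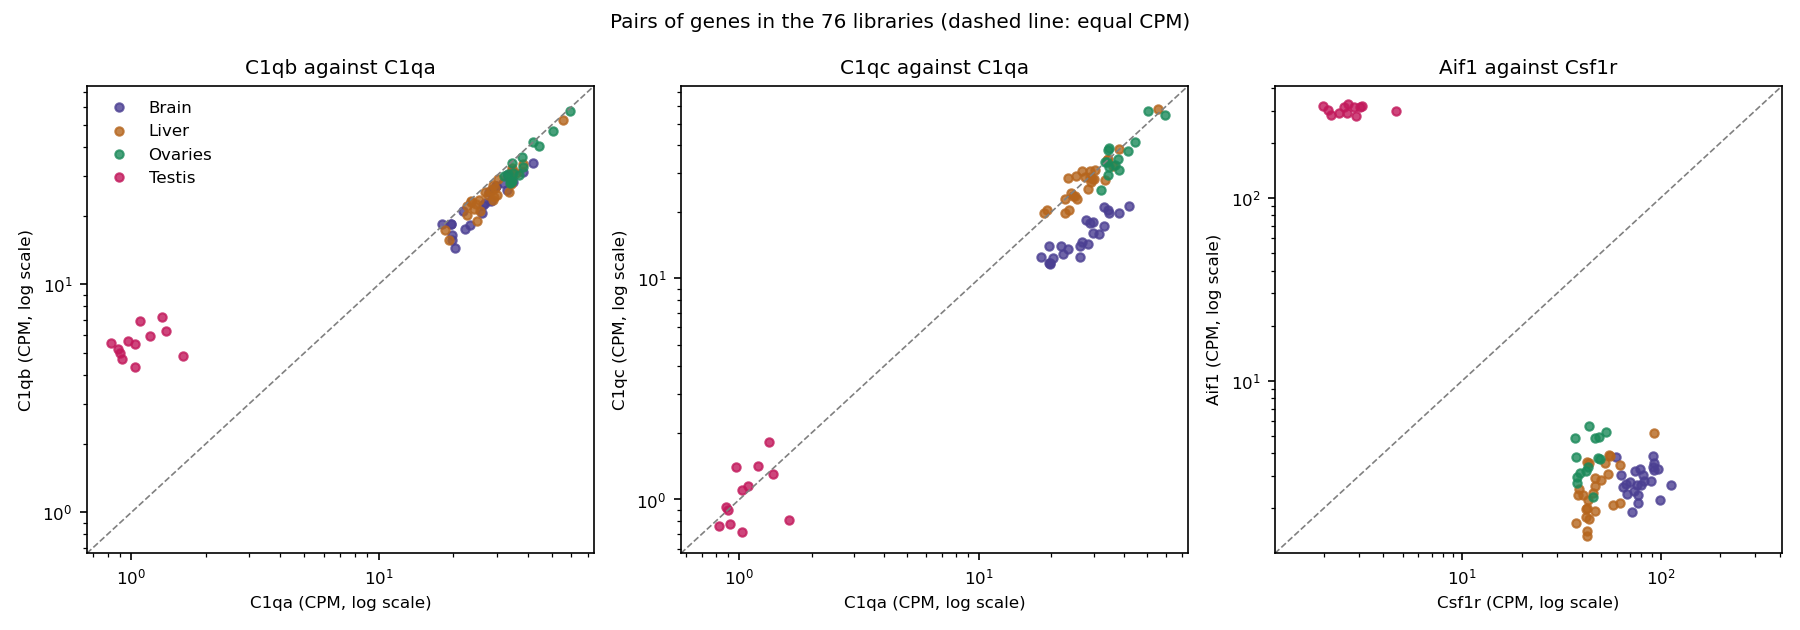
CPM of pairs of members against each other on log axes, a point per library coloured by tissue. The C1qb and C1qa points of brain, liver and ovary lie along 1 line with 0.713 to 1.02 C1qb counts per C1qa count, and the testis points lie above it.

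To ask how far the t haplotype moved these genes, each +/t animal was set against its +/+ sibling with edgeR's quasi-likelihood test, with the pair as a block and Benjamini-Hochberg adjustment over all genes tested; a gene was called at an adjusted p below 0.05. No member was called in any of the 6 comparisons. Tested members numbered 8 in the brain of males, where 0.264% of all genes were called, 8 in that of females (0.245% of all genes), 9 in the liver of males (0.159%), 9 in that of females (0.107%), 8 in ovary (0.104%) and 6 in testis (1.58%). DESeq2 also called 0 members in each. At an unadjusted p below 0.05 the members numbered 3 for brain of males, 4 for brain of females, 1 for liver of males and 0 for the other 3, against 8.38%, 5.48%, 4.65%, 6.74%, 2.49% and 13.6% of all genes in the same order. Clec4f and Vsig4 had too few counts to test outside liver, Tmem119 in liver and testis, and P2ry12 in testis.

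Aif1 is the member inside the t region, at chromosome 17:35170991-35176068 on the minus strand, and its testis level allows the narrowest comparison. Over the 6 testis pairs it had 284, 295 and 327 CPM as lowest, median and highest value in +/t animals and 280, 313 and 319 CPM in +/+ animals. The groups overlapped along nearly their whole range. Means were 301 ± 16.1 CPM in +/t testis and 307 ± 14.7 CPM in +/+ testis (SD, n = 6 each), a log2 fold change of -0.01 ± 0.030 (SE, edgeR adjusted p = 0.925), and +/t was higher in 3 of 6 pairs. The 95% interval ran from a fold of 0.950 to 1.04. In the other tissues Aif1 was low and the interval wide: in male brain +/t animals had 3.25, 3.56, 2.80, 3.28 and 1.91 CPM and their +/+ siblings 3.36, 2.82, 2.61, 2.37 and 3.06 CPM in the same order of pairs. The log2 fold change there was 0.07 ± 0.17 (adjusted p = 0.911, edgeR), higher in 3 of 5 pairs. In female liver Aif1 had 1.79, 2.26 and 3.86 CPM as lowest, median and highest in +/t animals against 1.75, 3.27 and 5.17 CPM in +/+ animals, with overlapping groups. That difference, -0.44 ± 0.23 on the log2 scale, had an edgeR adjusted p of 0.783 and an interval of 0.517 to 1.05 fold.

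In brain, C1qa, C1qb and Csf1r were higher in most +/t animals than in their siblings, by amounts that did not pass the adjusted threshold. C1qa in male brain had 34.4, 31.7, 26.2, 29.8 and 19.6 CPM in +/t animals, and 33.1, 34.8, 19.7, 23.4 and 18.1 CPM in their +/+ siblings in the same order. In 4 of 5 pairs the carrier was higher, the groups overlapped, and the log2 fold change was 0.18 ± 0.078 (SE, adjusted p = 0.592 in edgeR). C1qb in male brain had 31.5, 27.8, 20.5, 26.9 and 18.5 CPM in +/t animals and 25.9, 28.1, 16.4, 18.3 and 18.4 CPM in +/+ animals. Carriers again lay above their siblings in 4 of 5 pairs, at 0.25 ± 0.083 (adjusted p = 0.517 in edgeR). Csf1r, the receptor gene, had 92.8, 92.5, 69.7, 78.6 and 71.9 CPM in +/t male brains and 91.2, 89.1, 64.8, 76.6 and 62.8 CPM in +/+ male brains. All 5 pairs went the same way, and the size was 0.10 ± 0.045 (edgeR adjusted p = 0.593). C1qc, the remaining chain, was at 0.06 ± 0.087, and P2ry12, the ADP receptor, at 0.05 ± 0.065.

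Female brain gave like values in separate pairs, of which F2, F3 and F6 shared litters with the male pairs M2, M3 and M6. C1qa had 19.7, 28.9 and 42.0 CPM as lowest, median and highest value in +/t animals and 19.6, 22.3 and 38.3 CPM in +/+ animals, with overlap. All 7 carriers lay above their own sibling, at 0.24 ± 0.074 on the log2 scale with an adjusted p of 0.740 in edgeR. C1qb was higher in 6 of 7 pairs by 0.25 ± 0.11, Csf1r in 5 of 7 by 0.14 ± 0.060 and Tmem119 in 6 of 7 by 0.20 ± 0.088, with edgeR adjusted p of 0.895, 0.893 and 0.895. P2ry12 was at -0.02 ± 0.099 and Adgre1 at -0.09 ± 0.14. The median over the 8 tested members was 0.10 in male brain and 0.15 in female brain, against 0.0074 and -0.0015 over all genes. Of a list of 15 other microglial genes, 15 in male brain and 13 in female brain had a positive log2 fold change, with medians of 0.09 and 0.10. In either, 0 were called, where 0.264% and 0.245% of all genes were. C1qa, C1qb and Tmem119 varied together across brain libraries (Pearson's r of 0.91 to 0.94), so signs of such genes are not separate observations. Slc2a5, a fructose transporter on that list, had 4.06 ± 0.749 CPM in brain (SD, n = 24) and 742 ± 35.2 CPM in testis (SD, n = 12).

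**Figure D3:**
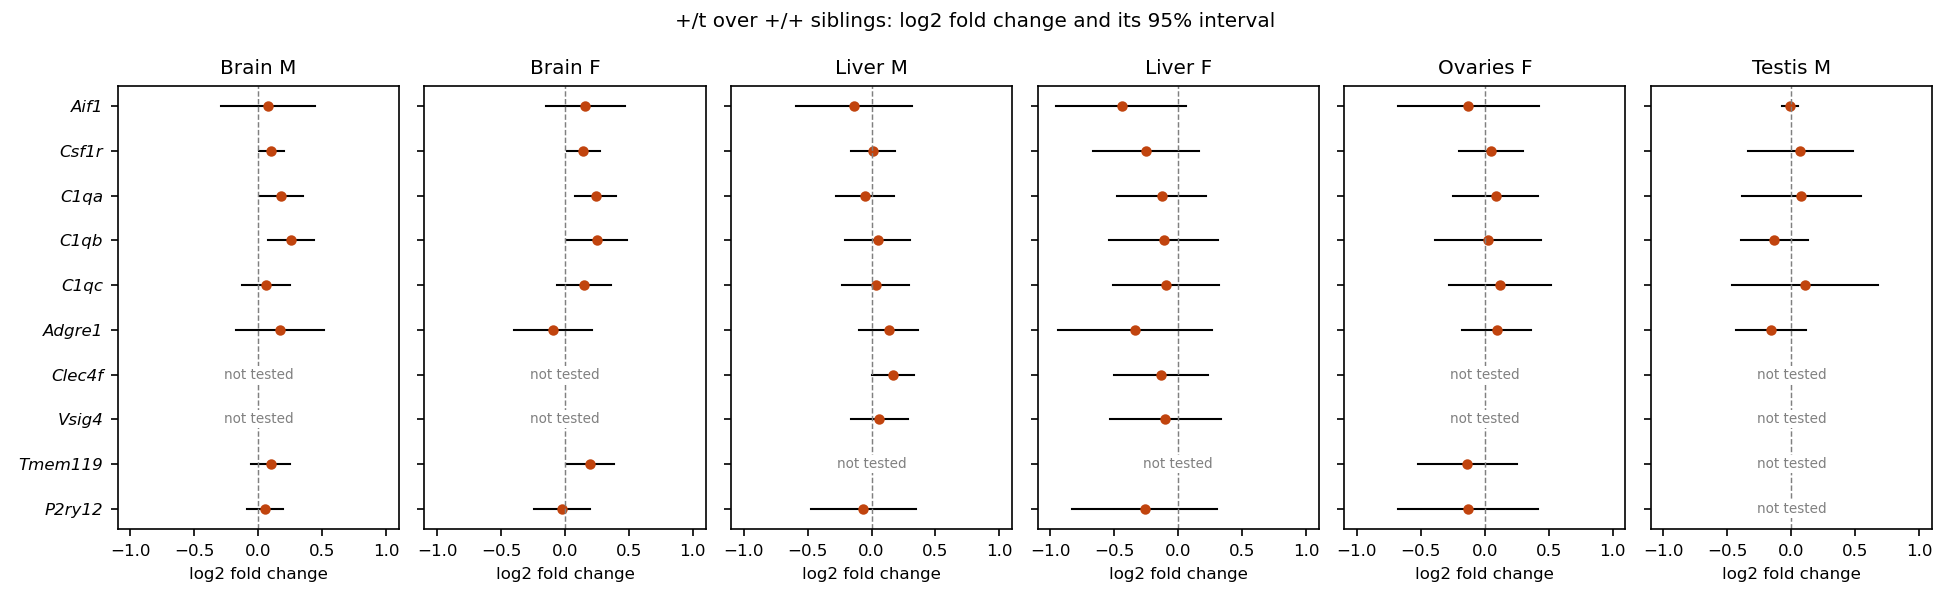
Log2 fold change of +/t over +/+ for each member in the 6 comparisons, with 95% intervals from edgeR's quasi-likelihood fit with the pair as a block; members with too few counts are marked as not tested. Most intervals span 0, the Aif1 interval in testis is the narrowest, and no member passed the adjusted threshold.

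In liver and gonads the direction varied between members or rested on 1 pair. In male liver the members lay between -0.14 for Aif1 and 0.17 for Clec4f, and Clec4f had 64.8, 69.9 and 74.7 CPM as lowest, median and highest in +/t animals against 49.9, 65.3 and 70.6 CPM in +/+ animals. Its fold change was 0.17 ± 0.075 (SE, adjusted p = 0.996 in edgeR), positive in 5 of 7 pairs, and the groups overlapped. In female liver all 9 tested members had a negative log2 fold change, between -0.44 and -0.10 with a median of -0.13; in none were more than 4 of 6 pairs lower. Replicate 3, whose +/+ library held the highest value of its group for each of these members, carried that direction: without it 5 of 9 were positive and 4 negative, between -0.31 and 0.11 with a median of 0.04. Csf1r in that pair was at 38.7 CPM in the +/t animal and 92.3 CPM in its +/+ sibling. Ovary values lay between -0.14 and 0.12, and testis values between -0.16 for Adgre1, lower in 5 of 6 pairs, and 0.11 for C1qc. Tests of whether the genotype effect differed between the sexes called 0 of 8 members in brain, 0 of 9 in liver and 0 of 8 in gonads with edgeR, against 0.0%, 0.0% and 0.0908% of all genes. DESeq2 called 0 members too, and 0 had an unadjusted p below 0.05, against 5.22%, 4.75% and 5.0% of all genes. The test in gonads set testis of males against ovary of females, so sex and organ cannot be told apart in it. Genotype by tissue tests in edgeR called 0 members in brain against liver (0.0191% of all genes in males and 0.0191% in females), brain against testis (0.0734%), brain against ovary (0.00593%), liver against testis (0.0608%) and liver against ovary (0.0317%), and DESeq2 called 0 as well. Unadjusted p below 0.05 were found for 3 members in brain against liver of females (Csf1r, C1qa and C1qb), 1 in brain against testis (P2ry12) and 3 in liver against ovary (Aif1, Csf1r and Adgre1), and for 0 in the other 3. Without pair 3 the counts in brain against liver of females and in liver against ovary were 0 each. The shares of all genes below that p were 3.61% and 3.68% in brain against liver of males and females, 2.21% in brain against testis, 1.37% in brain against ovary, 4.87% in liver against testis and 4.24% in liver against ovary.

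Fold changes between tissues were fitted within animals, both genotypes together, and depend on the scaling. Factors of the trimmed mean of M values (TMM) were used, and with library totals alone the median of all genes moved by 0.78 and 0.82 in brain against liver of males and females, 0.22 in brain against testis, -0.66 in brain against ovary, -0.52 in liver against testis and -1.51 in liver against ovary. Directions named here held under both scalings unless said otherwise.

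In brain against liver, 9 of 10 members were called in males, 2 higher and 7 lower in brain, where 91.3% of all genes were called, 50.7% higher and 40.5% lower. In females 10 of 10 were called, 2 higher and 8 lower, where 91.6% of all genes were, 49.9% higher and 41.7% lower. Those higher in brain were Tmem119 and P2ry12. P2ry12 had a log2 fold change of 2.92 ± 0.11 in males and 2.62 ± 0.16 in females, and was higher in brain in 10 of 10 animals of each sex. Tmem119 was at 4.42 ± 0.19 and 5.11 ± 0.19. Lower in brain were Adgre1, by -2.87 ± 0.10 in males and -3.21 ± 0.13 in females, and C1qc, by -1.51 ± 0.091 and -1.88 ± 0.11, both in 10 of 10 animals of each sex, along with Clec4f and Vsig4. Aif1, C1qa and C1qb in males and Aif1 and Csf1r in females were lower in brain with TMM but had the opposite sign with library totals, so no direction is given for them; C1qa and C1qb in females kept a negative sign under both. Of a list of 15 microglial genes, 11 were higher and 3 lower in brain than in liver of males, with a median of 1.91 against 0.26 over all genes. Of 13 tested Kupffer cell genes, 0 were higher and 13 lower, with a median of -5.28, among them Cd5l, a scavenger receptor relative secreted by macrophages, at 0.00405 ± 0.0138 CPM in brain and 73.7 ± 23.9 CPM in liver (SD, n = 24 and 26). These lists and members were picked as markers of the tissues compared.

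Aif1 was higher in testis than in brain or liver, while most other members were lower there. Against testis, 8 of 8 tested members were called in brain, 6 higher and 2 lower, where 93.3% of all genes were called, 46.3% higher and 47.0% lower. In liver 9 of 9 were called, 8 higher and 1 lower, where 94.6% of all genes were, 40.1% higher and 54.5% lower. Aif1 was lower in brain than in testis by -6.89 ± 0.093 and lower in liver than in testis by -6.52 ± 0.10 on the log2 scale (edgeR adjusted p = 4.15e-17 and 6.79e-19), in 8 of 8 and 12 of 12 animals. Csf1r was higher in brain by 4.66 ± 0.13 and in liver by 4.53 ± 0.099, and C1qa by 4.39 ± 0.16 and 4.99 ± 0.092. C1qb was higher by 1.81 ± 0.12 in brain and 2.47 ± 0.096 in liver, with intervals of 1.55 to 2.08 and 2.27 to 2.68 that lay below those of C1qa, 4.06 to 4.75 and 4.81 to 5.20. Adgre1 was the second gene lower in brain than in testis, at -0.82 ± 0.14, and was higher in liver than in testis, at 1.88 ± 0.091. The count of Aif1 per count of Csf1r therefore had a median of 0.0353 in brain, 0.0557 in liver, 0.0788 in ovary and 116 in testis (64.6 to 160 over 12 libraries).

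Most macrophage genes other than the members were lower in testis than in liver but not absent. Of 19 tested genes of a general macrophage list, 18 were called higher and 1 lower in liver than in testis. Of all genes 40.1% were called higher and 54.5% lower. The median of the list was 3.32 against -0.57 over all genes. Of 13 Kupffer cell genes 13 were higher in liver. The 20 listed macrophage genes summed to 296 to 635 CPM in liver, 521 to 984 CPM in ovary and 86.5 to 127 CPM in testis. In brain they summed to 126 to 195 CPM, which overlapped testis. None was at 0 in all testis libraries. Mrc1, the mannose receptor, had 24.5 ± 4.94 CPM and Msr1, a scavenger receptor, 17.5 ± 1.88 CPM of the testis sum (SD, n = 12), while Tyrobp, the adaptor of myeloid receptors, had 0.439 ± 0.191 CPM. The part of macrophages in the testis level of Aif1 was not tested.

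The genes beside Aif1 were examined because they share its position. It lies between Prrc2a on 1 side and Lst1 on the other, in the stretch that also holds Bag6 and the lymphotoxin and tumour necrosis factor genes. Of the 5 nearest annotated genes on each side, 0 were called between +/t and +/+ in any of the 6 comparisons, with 5 to 8 of the 10 tested. Of all genes 0.104% (ovary) to 1.58% (testis) were called, so 0 among so few genes is near the share of all genes. In testis Bag6, a chaperone gene, averaged 1164 ± 62.0 CPM in +/t and 1163 ± 71.3 CPM in +/+ animals, and Prrc2a 1099 ± 59.1 CPM in +/t and 1093 ± 56.9 CPM in +/+ animals (SD, n = 6 each). In brain against testis, 9 neighbours were tested, of which 2 were called higher in brain and 5 lower, where 46.3% of all genes were called higher and 47.0% lower. Those lower in brain were Bag6 (-2.75), Gpank1 (-2.48), Nfkbil1 (-2.09), Prrc2a (-1.40) and Apom (-4.73, at 0.572 CPM in testis). Higher in brain were Lst1, a leukocyte gene next to Aif1, at 3.25, with 0.891 CPM in brain and 0.0718 CPM in testis, and D17H6S53E at 2.65, with 13.9 CPM in brain and 1.98 CPM in testis. Aif1l, the paralogue of Aif1, was not raised in testis: it averaged 112 ± 52.0 CPM in ovary, 11.3 ± 1.66 CPM in brain, 3.13 ± 2.56 CPM in testis and 0.129 ± 0.180 CPM in liver.

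**Figure D4:**
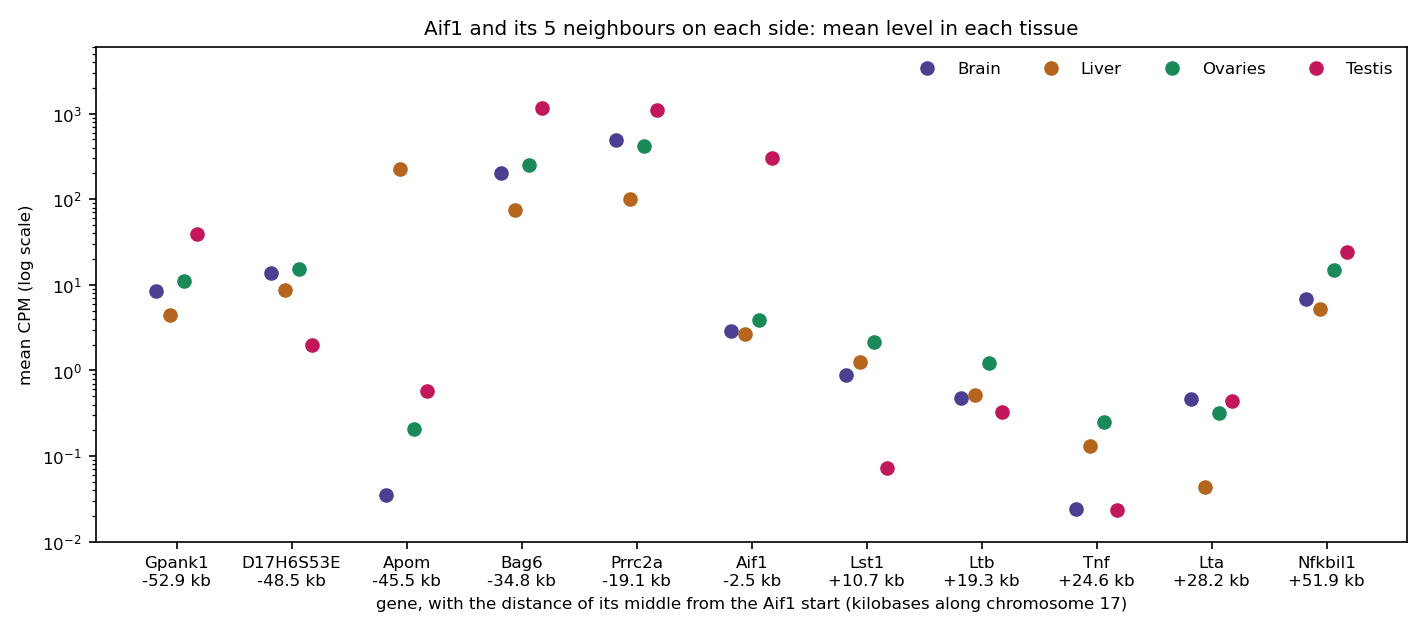
CPM, on a log axis, of Aif1 and the 5 annotated genes on each side of it in gene order, with a point at the mean over the libraries of each tissue. Aif1 has a testis mean of 304 CPM, far above its means in the other tissues, and Lst1 beside it is lowest in testis.

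Against ovary, brain had 5 of 8 tested members called, 3 higher and 2 lower, where 90.3% of all genes were, 44.0% higher and 46.3% lower. P2ry12 was higher in brain by 4.34 ± 0.14 and Csf1r by 1.54 ± 0.081, in 12 of 12 animals each, while Adgre1 was lower by -1.98 ± 0.12 and C1qc by -0.56 ± 0.10 in all 12. Tmem119, the fifth, was higher by 0.82 ± 0.16 but by 0.16 with library totals, where it was no longer called (edgeR adjusted p = 0.359). Aif1, C1qa and C1qb were not called and changed sign with the scaling. In liver against ovary 10 of 10 were called with TMM, 9 higher and 1 lower, where 88.7% of all genes were, 39.3% higher and 49.3% lower, but with library totals 4 of 10: Csf1r, Clec4f and Vsig4 higher and Tmem119 lower. Tmem119 was lower in liver by -4.44 ± 0.29, in 10 of 10 animals. For Clec4f the livers had 10949 counts in sum and the ovaries 3, a ratio per library total of 4084 with a 95% counting interval of 1398 to 19805. Aif1, C1qa, C1qb, C1qc and Adgre1 changed sign there with the scaling, so no direction is given for them.

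Ligands and lineage factors of macrophages had their own distributions. Il34, a ligand of the CSF1 receptor, averaged 37.4 ± 4.66 CPM in brain, 10.6 ± 2.97 CPM in ovary, 0.787 ± 0.419 CPM in liver and 0.814 ± 0.293 CPM in testis (SD, n = 24, 14, 26 and 12). Csf1, the other ligand, was at 23.8 ± 1.85, 25.9 ± 5.34, 10.7 ± 2.99 and 4.33 ± 1.02 CPM in the same tissues. Spi1, which encodes PU.1, was low throughout, at 2.31 ± 0.496 CPM in brain, 4.70 ± 0.817 CPM in ovary, 3.90 ± 1.07 CPM in liver and 0.730 ± 0.155 CPM in testis. C1ra and C1s1, the proteases that complete the C1 complex, averaged 0.976 ± 0.219 and 0.569 ± 0.210 CPM in brain but 234 ± 44.4 and 561 ± 100 CPM in liver.

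Males and females were also compared among the +/+ animals, within brain and within liver. In brain 0 of 8 tested members were called by edgeR, against 0.0392% of all genes. DESeq2 called 0 as well, and 0 had an unadjusted p below 0.05, against 3.29% of all genes. In liver 4 of 9 were called, all lower in males, where 12.5% of all genes were called and 6.53% were called lower. The 7 male and 6 female livers came from different pairs, in part from different litters, so sex and litter are only partly separated.

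Clec4f was the firmest of the 4. It had 49.9, 65.3 and 70.6 CPM as lowest, median and highest value in male +/+ livers and 74.2, 84.4 and 129 CPM in female +/+ livers, without overlap. The log2 fold change was -0.54 ± 0.13 (SE, edgeR adjusted p = 0.0123), and it was called whichever of the 13 libraries was left out. C1qa averaged 24.7 ± 3.18 CPM in males and 35.8 ± 10.04 CPM in females (SD, n = 7 and 6), a change of -0.53 ± 0.15 (edgeR adjusted p = 0.0316), called in 8 of 13 such fits. Adgre1 averaged 9.14 ± 1.44 CPM in males and 14.1 ± 4.77 CPM in females, -0.63 ± 0.19 (adjusted p = 0.0374, edgeR), called in 5 of 13. C1qb averaged 21.3 ± 3.27 CPM in males and 31.6 ± 10.6 CPM in females, -0.57 ± 0.18 (adjusted p = 0.0486, edgeR), called in 2 of 13. With RLE factors (DESeq2's type of size factor) C1qb was not called (edgeR adjusted p = 0.0511), and DESeq2 also called C1qc (adjusted p = 0.0289). C1qc at -0.52, Csf1r at -0.43, Vsig4 at -0.44, Aif1 at -0.41 and P2ry12 at -0.21 were not called by edgeR.

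Female +/+ liver replicate 3 had the highest value of its group for each of the 9 tested members. Without it Clec4f and C1qa were the members called, at -0.41 and -0.36, where 11.4% of all genes were called. The count was also 2 without male replicate 1 or 6 or female replicate 1, where 11.1%, 14.1% and 10.1% of all genes were called. It was 1 without male replicate 4, 5 or 7 or female replicate 4, where 10.1%, 10.1%, 10.4% and 9.43% were. In these last fits 1 of 9 members is near the share of all genes. The +/t livers came from siblings of these animals, so the litters are shared, and 12.1% of all genes were called among them. There C1qa (-0.42, edgeR adjusted p = 0.0155) and C1qb (-0.37, adjusted p = 0.0244) were called lower in males. Clec4f (-0.25, adjusted p = 0.193) and Adgre1 (-0.15, adjusted p = 0.644) were not. Restricting the +/+ fit to the 8 libraries that share litters, with litter as a block, left Clec4f alone called (edgeR adjusted p = 0.0415), where 5.05% of all genes were.

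Most other macrophage genes were not called in male against female +/+ liver, where 6.53% of all genes were called lower in males. Of 19 tested genes of the general list 4 were called lower (Msr1, Cd14, Ctss and Mrc1) and 0 higher, with a median of -0.43 against -0.0012 over all genes. Of 13 Kupffer cell genes 3 were called lower (Cfp, Hmox1 and Nr1h3) and 0 higher, with a median of -0.39. Without female +/+ replicate 3 these counts were 3 and 2, with medians of -0.27 and -0.26. The general list had 2 called lower without male replicate 4 or 7 and 6 without male replicate 3 or female replicate 7. Among +/t livers 0 of the general list and 2 of the Kupffer cell list were called lower. The share of all genes called lower was 6.07% without female +/+ replicate 3 and 6% among +/t livers. Csf1 averaged 7.76 ± 1.57 CPM in males and 12.9 ± 1.53 CPM in females without overlap, a change of -0.72 ± 0.12 (edgeR adjusted p = 0.000795). Adgre4, a relative of Adgre1, was lower in males by -0.69 ± 0.15, while C1s1 and C1ra were higher by 0.41 ± 0.068 and 0.41 ± 0.073. The summed level of the 20 macrophage genes was 296 to 459 CPM in male and 390 to 635 CPM in female +/+ livers. A list of 9 endothelial genes, all tested, summed to 181 to 233 CPM in males and 232 to 272 CPM in females, with 2 genes called lower and also 2 without female replicate 3. With litter as a block 0 of these 9 were called. Among +/t livers 0 were called too, and the median log2 fold change was 0.12 there against -0.23 among +/+ livers. The part of cell composition in these differences was not tested.

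**Figure D5:**
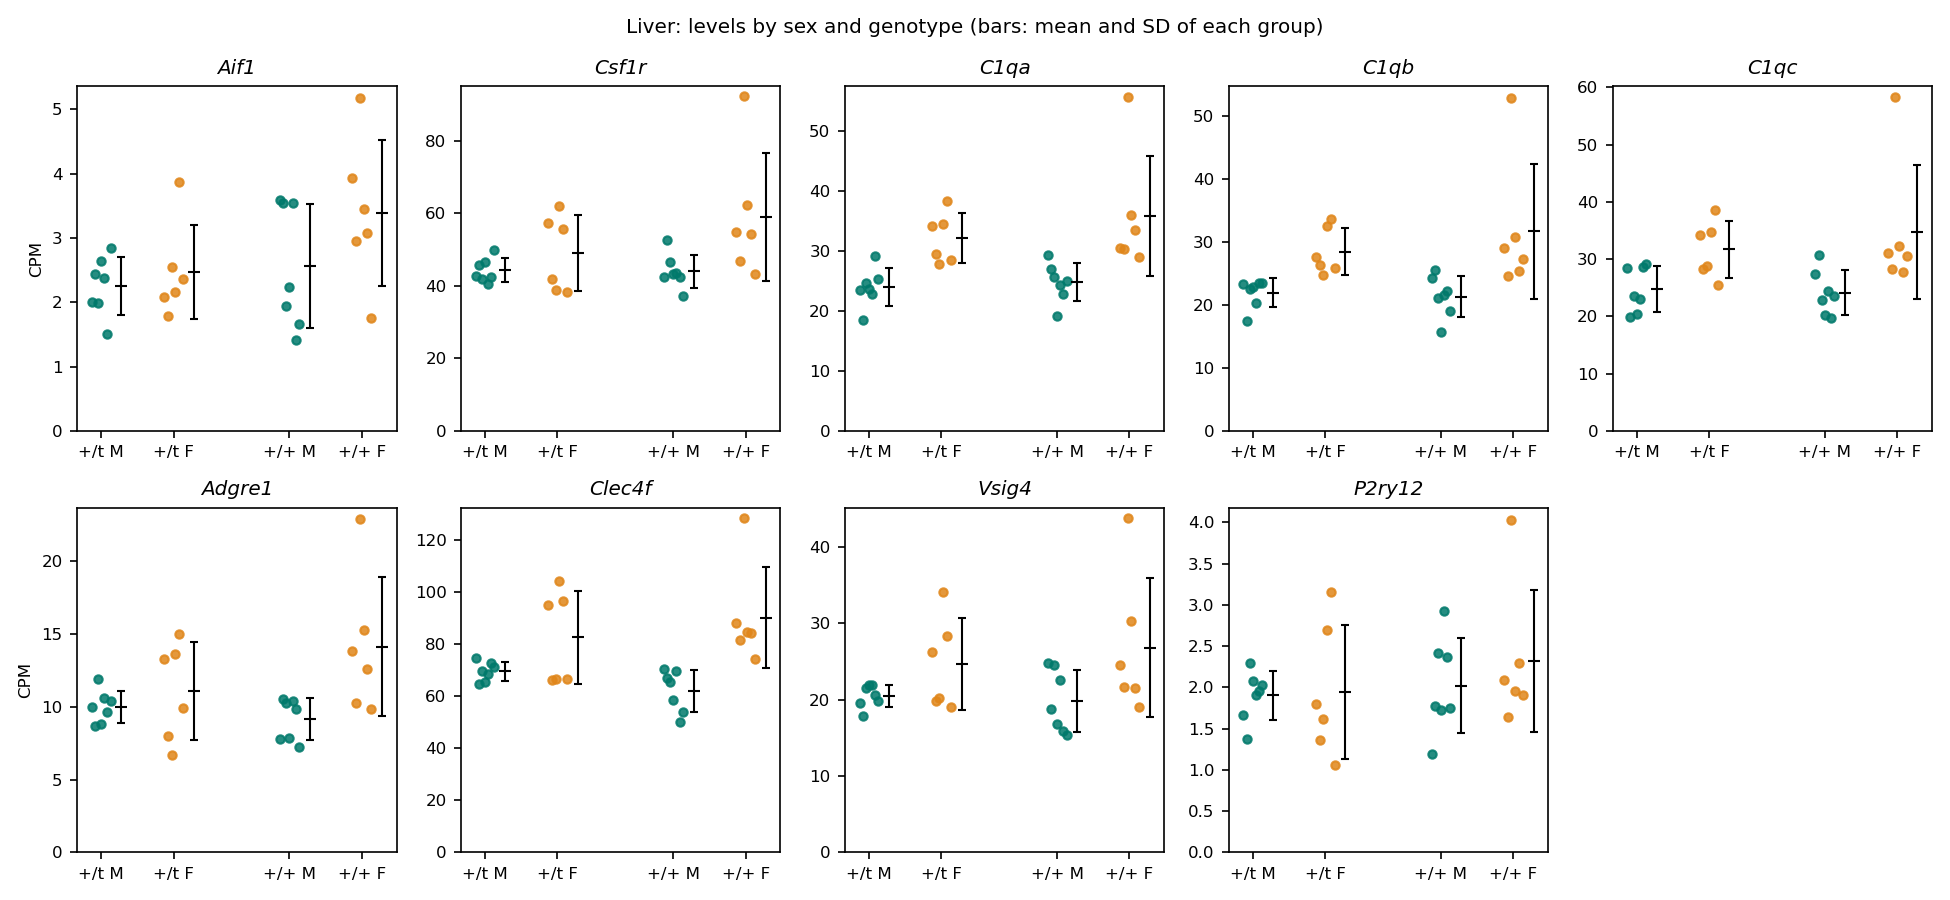
CPM of the 9 members tested in liver, on linear axes that start at 0, with a point per library and a bar at the mean and SD of each group; +/t stands left of +/+, and males left of females within a genotype. Among +/+ livers, Clec4f is the called member whose male and female values do not overlap, and female replicate 3 is the top female point for each member.

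The genes whose level followed Aif1 and C1qa most closely within a tissue were named by Pearson's r of log2(CPM + 1) over its libraries, as a description. Libraries share depth, extraction and, in part, animals. For Aif1 the closest was Rcsd1 in brain (r = 0.63, n = 24), Igsf6 in liver (r = 0.75, n = 26), Tmem178 in ovary (r = 0.86, n = 14) and Fer1l6 in testis (r = 0.93, n = 12). C1qa was closest to Slc9a3r1 in brain (r = 0.94, n = 24), Sdc3 in liver (r = 0.90, n = 26), Arhgdib in ovary (r = 0.94, n = 14) and Ccdc12 in testis (r = 0.94, n = 12). Spearman's rho for the Aif1 genes, in the same order of tissues, was 0.583, 0.757, 0.855 and 0.944, and r without the 2 libraries farthest from the median of Aif1 was 0.58, 0.62, 0.80 and 0.87. For the C1qa genes rho was 0.947, 0.869, 0.886 and 0.874, and r without the 2 libraries 0.95, 0.88, 0.93 and 0.84. No gene was the closest in more than 1 tissue.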

How the data were processed

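RNA of brain, liver, ovary and testis was sequenced from TruSeq stranded mRNA libraries. The authors deposited whole-number read counts per gene for each library; the submitters' processing notes name STAR 2.5.1b, featureCounts and the genome build GRCm38. The sources used here do not state the annotation release or the strand setting. The deposited counts were used as they are, and symbols and positions came from GENCODE M21, which held 25472 of the 25567 genes. CPM values were computed here from library totals of 8266183 to 45203167.

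Tests were run in edgeR 4.0.16 (R 4.3.3): filterByExpr with a minimum count of 10, TMM factors, and robust quasi-likelihood fits with the sibling pair (genotype) or the animal (tissue) as a block. Benjamini-Hochberg adjustment ran over all genes tested, with a threshold of 0.05. DESeq2 1.42.0, size factors of the relative log expression type (RLE), library totals (between tissues), no filter, a minimum count of 50 (between genotypes), no block, no robust moderation and each pair or library left out were alternatives. The pairing comes from the sibling labels: same-numbered animals are siblings of 1 litter. After subtracting group means, the 2 libraries of a pair had a correlation of 0.0137 to 0.531 (brain of males), 0.206 to 0.673 (brain of females), 0.193 to 0.458 (liver of males), 0.0820 to 0.346 (liver of females), -0.217 to 0.366 (ovary) or 0.236 to 0.385 (testis). Fits were tested on simulated data. Members, lists and tests were chosen with earlier results of these data known. Named genes are the 10 members, up to 4 called genes of each list per comparison by adjusted p, the 5 nearest neighbours of Aif1 on each side and the genes of highest r; other single genes (Cx3cr1, Siglech, Slc2a5, Cd5l, Mrc1, Msr1, Tyrobp, Il34, Csf1, Spi1, C1ra, C1s1 and Aif1l as levels) were chosen after their values were seen. With blastn 2.17.0 no member shared a stretch of at least 100 bases at 90% identity with another gene, other than the overlap of Csf1r and Hmgxb3.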

Additional observations from a re-analysis of the deposited data

Results flagged for a closer look

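Of 96 combinations of a member and a group with a mean of at least 1 CPM, 11 had a library whose gap to its nearest neighbour took up an unusually large share of the group's range; chance flags about 1 in 20 groups, and members share libraries. In each of the 11 the library was the highest of its group. Female +/+ liver replicate 3 gave 5 of them, with 55.6 CPM of C1qa, 52.9 CPM of C1qb, 58.3 CPM of C1qc, 129 CPM of Clec4f and 4.03 CPM of P2ry12. Its total of 11405529 counts lay within the range of the livers. Ovary of +/t replicate 3 gave another 3, with 59.4 CPM of C1qa, 57.6 CPM of C1qb and 55.2 CPM of C1qc. The other 3 were C1qc in ovary of +/+ replicate 6 at 57.0 CPM, Aif1 in female +/t liver replicate 5 at 3.86 CPM, and Csf1r in +/t testis replicate 1 at 4.61 CPM. No interaction of genotype with sex or tissue was called for a member.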

How the results depend on the processing

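The 0 members called between +/t and +/+ stayed 0 in all 85 alternative fits of the 6 comparisons, with no replicate block, DESeq2, RLE factors, no robust moderation, other filters, even-count libraries halved or left out, pair 3 of the male livers with its genotypes exchanged, or a pair left out (lowest and highest count 0 and 0), and the interactions stayed 0 in 77. Between tissues, a fit with no replicate block kept each count of members called except in brain against liver of females, where it was 9 in place of 10, with Csf1r at -0.30 and an edgeR adjusted p of 0.0533. Members called in liver against ovary numbered 4 with library totals, in place of 10. Library totals also gave the opposite sign in brain against liver for Aif1 (0.29 in males, 0.0084 in females), C1qa (0.10, males), C1qb (0.044, males) and Csf1r (0.56, females), in brain against ovary for Aif1 (-0.43), C1qa (-0.52) and C1qb (-0.62), and in liver against ovary for Aif1 (-0.36), C1qa (-0.17), C1qb (-0.21), C1qc (-0.055) and Adgre1 (-0.11), where the median of all genes moved by the shifts given with the tissue comparisons. In males against females in +/+ liver, the 4 members called became 1 with litter as replicate block (8 libraries), 2 among +/t animals, 3 with RLE factors or no filter (both without C1qb), 5 with DESeq2 (C1qc added), and 1 to 4 with a library left out. Of 60 member levels by tissue and sex, 27 moved by more than their SD with TMM-scaled CPM over all libraries. With the longest transcript as length, 26 of 100 levels per kilobase did. Depth limits what could be seen: Clec4f and Vsig4 outside liver, Tmem119 in liver and testis, and P2ry12 in testis had too few counts for a genotype test. Fits without robust moderation, and the library left out in the sex and interaction fits, were added after seeing the data.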
